A study of Drosophila melanogaster with 16 samples.

Results

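The genes described here carry the bone morphogenetic protein (BMP) signal that a fly motor neuron (MN) receives from its target muscle: the ligand gbb, the type II receptors wit and put, the type I receptors tkv and sax, the transcription factors Mad and Med, and the inhibitor Dad. They were chosen by name, and every feature (probe design) whose accession belongs to 1 of them was taken, whatever its signal. This gave 15 of the 45366 features on the array and 8 of its 12970 gene symbols, with 1 feature each for gbb, wit and sax, 2 each for put, tkv, Mad and Dad, and 4 for Med. RNA came from GFP-positive MNs that were sorted from the lower thorax of female Drosophila melanogaster of the w1118 strain carrying GFP under the D42 driver, which marks MNs by a transgene and not by their own markers. The 3 ages were 7 days after eclosion (5 arrays), 35 days (5 arrays) and 45 days (6 arrays), all from untreated flies of the same genotype that aged under standard conditions, and each array held a pool of MNs from 5 flies.

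At the fly neuromuscular junction, BMP signaling runs backward across the synapse. The muscle secretes Gbb, which binds a complex of type II and type I serine/threonine kinase receptors on the motor terminal. The type II receptor activates the type I receptor, which phosphorylates Mad. Phosphorylated Mad joins Med, and the pair enters the MN nucleus and controls transcription. In larvae this signal is required for the growth of the junction, for neurotransmitter release and for the expression of genes such as trio and twit. The type II receptor Wit is best known for this role in MNs, whereas Punt, Tkv and Sax also act in many other tissues. Dad is an inhibitory Smad that is itself a transcriptional target of the pathway in other fly tissues.

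All levels below are log2 signal relative to the 75th percentile of the array, so that each unit is a factor of 2 and a negative value lies below the 75th percentile. Probes bind with different strength, so a level is compared between ages and never between features. The spots well above background were 56.7% to 67.1% of an array, and no spot was saturated. The neuronal markers elav, nSyb, Syt1, brp and Syx1A were well above background on all 16 arrays, as were exex, Lim3, tup, zfh1, Toll-6 and twit of the 8 MN markers, while eve was above background on 6 arrays and VGlut was not named on this array. All 7 glial markers were detected as well, with alrm and nrv2 at 3.73 to 4.42 and 2.37 to 2.79 as means by age. The others read lower, with repo at -0.04 to 0.47 and Eaat1 at -0.13 to 1.60. Lowest were loco at -4.10 to -2.87, wrapper at -5.57 to -3.10 and moody at -6.04 to -4.54. The arrays lay on 2 slides. All 7-day arrays were in row 2 of a slide and all 35-day arrays were in row 1, so that age and row cannot be told apart between 7 and 35 days. The 45-day arrays were split between the rows, 3 in each.

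The comparisons asked whether MNs changed their own expression of this signaling chain as the flies aged. No gene of the 8 passed the test between any pair of ages (limma, adjusted p under 0.05 and more than 2-fold), and neither did any of the 15 features. The comparison of 7 with 45 days had 0.375% of all features and 0% of all genes past the threshold. From 7 to 35 days these shares were 0.097% and 0.1%, and from 35 to 45 days they were 0.0154% and 0.00771%. The F test over the 3 ages also found 0 of the 15 features at an adjusted p under 0.05, where 0.582% of all features passed.

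At an unadjusted p under 0.05, gbb and tkv changed between 7 and 45 days, which is 2 of 8 genes against 9.07% of all genes. Between 7 and 35 days gbb alone was under this level, against 24.1% of all genes, and between 35 and 45 days 0 of the 8 were, against 7% of all genes. The median change of the 8 genes was -0.02 for 45-day against 7-day MNs, 0.09 for 35-day against 7-day MNs and -0.12 for 45-day against 35-day MNs. Over all genes the same medians were -0.21, -0.34 and 0.15 under this scaling, and 0.12, 0.0064 and 0.12 when arrays were scaled by their medians, so directions of changes of this size depend on the scaling. In bulk samples, fewer cells of a type and less RNA per cell cannot be told apart.

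**Figure D1:**
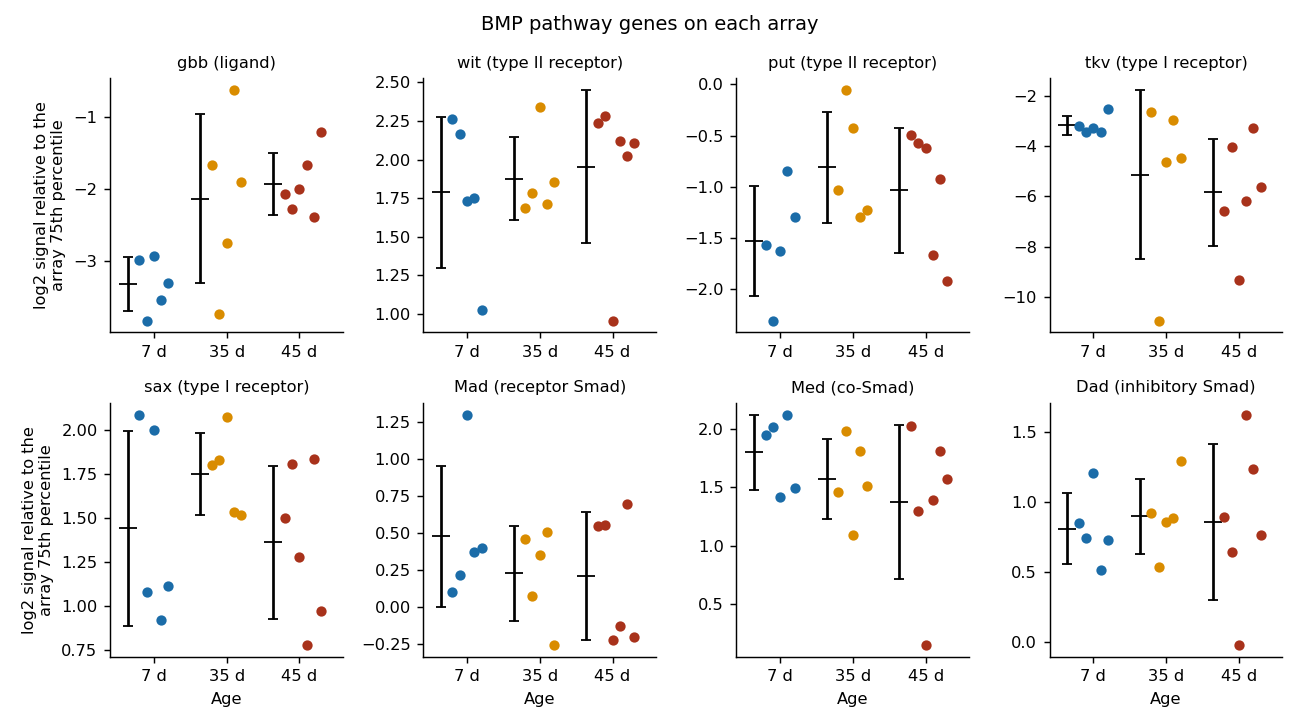
Log2 signal relative to the array's 75th percentile for each of the 8 genes on each array (points, in replicate order), by age in days, with the mean and SD of the age (black dash and bar) and a separate vertical scale for each gene. The 45-day arrays for gbb all lie above the 7-day arrays, from -2.38 to -1.20 against -3.83 to -2.93, whereas the ages overlap in the other 7 genes.

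gbb, the ligand, had the only change whose arrays did not overlap. Its level on the 5 arrays of 7-day MNs was -2.99, -3.83, -2.93, -3.54 and -3.30. At 35 days the level was -1.67, -3.74, -2.75, -0.62 and -1.90. At 45 days the lowest, median and highest of the 6 arrays were -2.38, -2.03 and -1.20. Every 45-day array was above every 7-day array, while the 35-day arrays spread over the range of both other ages. In the order of the means, 7 days was lowest at -3.32 ± 0.38 (SD, n = 5), then 35 days at -2.14 ± 1.18 (n = 5) and 45 days at -1.93 ± 0.44 (n = 6), and only 7 and 45 days were separated by more than their spread.

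The change of gbb from 7 to 45 days was 1.39 on the log2 scale (SE 0.27, 95% interval 0.80 to 1.98), or 2.62-fold. It ranked 20 of 12970 genes by p, but its adjusted p was 0.194 over genes and 0.0751 over features with limma. Values of 7-day and 45-day arrays failed to overlap in 1.2% of all genes, and gbb was the only member among them. When features were kept only if they were well above background on all arrays of at least 1 of the ages, the adjusted p of the gbb feature was 0.0302 over 23669 features, which passed the threshold. In that setting 208 of the 23669 features passed. Over all 24 alternatives, the change of gbb ranged from 1.24 to 1.71 and its adjusted p over genes from 0.0705 to 0.757.

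The gbb difference was of similar size within each part of the layout. It was 1.29 on slide 1 (2 arrays at 7 days, 3 at 45 days) and 1.51 on slide 2 (3 arrays at each age). It was 1.49 when only arrays in row 2 were used (5 arrays at 7 days, 3 at 45 days). The ages could not overlap within these parts, since they did not overlap over all arrays. Within the 45-day group, arrays in row 1 differed from those in row 2 by -0.21. From 7 to 35 days the change was 1.18 (95% interval 0.01 to 2.35, adjusted p = 0.203, limma), with 0.69 on slide 1 and 2.00 on slide 2, and the values overlapped, as they did for all 8 genes in this comparison, where 4.39% of all genes did not overlap. From 35 to 45 days the change of gbb was 0.21 (-0.88 to 1.30).

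gbb is known to be expressed in muscle and other tissues of the fly as well as in neurons, so the markers of those tissues were read on the same arrays. Of 9 muscle genes, 8 were on the array, and 6 of these 8 were higher at 45 than at 7 days, with a median change of 1.15 and 0 genes past the test. The summed muscle level was 71.1 to 588 percent of the array's 75th percentile at 7 days, 175 to 583 at 35 days and 380 to 1426 at 45 days. Of the 7 fat body genes, 5 were higher at 45 days, with a median change of 1.01, 0 genes past the test and summed levels of 435 to 2535, 953 to 2788 and 1395 to 4193 percent. No defining muscle marker was at 0, with Mhc, Mlc2 and wupA above background on all 16 arrays and up on 9. The glial list had 3 of 7 genes higher, a median change of -0.25 and summed levels of 2398 to 4204 percent at 7 days and 1552 to 2831 percent at 45 days. This median was close to that of all genes, -0.21. The lists for all neurons, MNs and cholinergic neurons gave -0.21, -0.25 and -0.28. The median change was -0.48 for 4 hemocyte genes and 0.0021 for 3 tracheal genes, with 0 of these genes past the test. The muscle and fat body lists moved in the direction of gbb between 7 and 45 days with overlapping ages. From 7 to 35 days, where gbb changed by 1.18, the median change was -0.34 for muscle, with 3 genes higher. For fat body it was 0.20, with 6 genes higher. The part of these tissues in the gbb difference was not tested.

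wit, the type II receptor that defines this signal in MNs, had similar means at the 3 ages. Its level was 2.26, 2.17, 1.73, 1.75 and 1.02 at 7 days and 1.69, 1.79, 2.34, 1.71 and 1.85 at 35 days. At 45 days it ranged from 0.96 to 2.28 with a median of 2.11. The ages overlapped over all arrays, and the low values at 7 and 45 days came from 1 array each, replicate 5 and replicate 3.

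The change of wit was 0.17 from 7 to 45 days (95% interval -0.51 to 0.84, adjusted p = 0.862), 0.09 from 7 to 35 days (-0.52 to 0.70) and 0.08 from 35 to 45 days (-0.53 to 0.68), all with limma. The intervals thus reach 0.84 upward and 0.53 downward at most, which is less than a 2-fold change in either direction, although directions within this range were not stable. The change from 7 to 45 days was -0.39 on slide 1 and -0.0058 among arrays of row 2. On slide 2 it was 0.58, with no overlap between only 3 arrays at each age.

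The wit probe was printed at 10 spots on each array, which allowed the error between spots to be set against the spread between arrays. After 8 of 160 spots were left out as outliers, the spots of an array had an SD of 0.04 to 0.16 and spanned 0.12 to 0.57 from lowest to highest. The median SD between spots was 0.07 and the SD between arrays of an age was 0.43, which is 6.56 times larger. Thus the low wit level of replicate 3 at 45 days was shared by all its 10 spots, which lay between 0.83 and 1.05, while the lowest spot of any other 45-day array was at 1.88. For the other 5 features with 2 spots, from gbb, put, tkv, sax and Med, the spread between arrays of an age was 2.88 (Med) to 27.0 (tkv) times that between spots. Spots of an array share its hybridization, scan and slide, so this compares the pools with the spot error only.

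**Figure D2:**
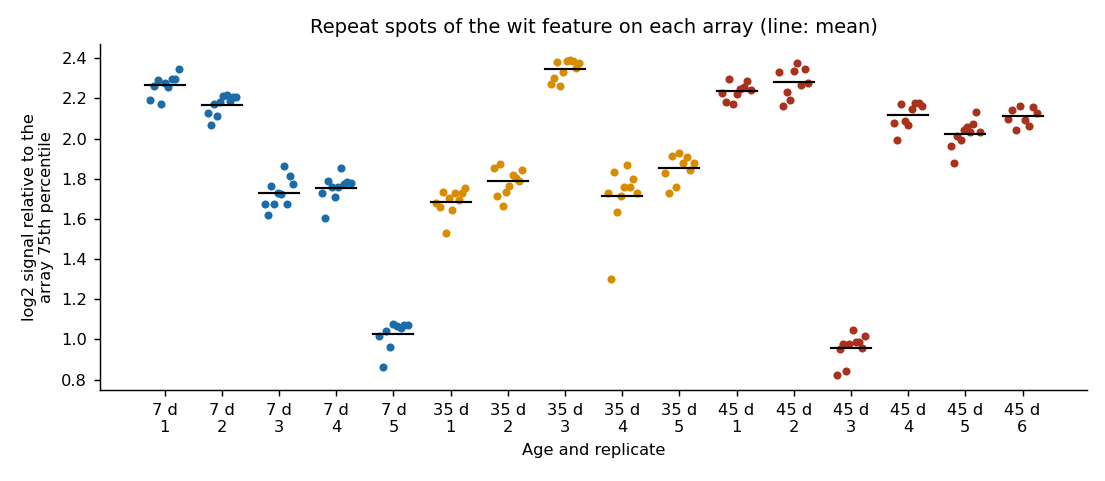
Log2 signal relative to the array's 75th percentile of each retained spot of the wit feature (points) on each of the 16 arrays, with the array mean (line), ordered by age and replicate. The spots of an array span at most 0.57, and those of replicate 3 at 45 days lie between 0.83 and 1.05, below every other 45-day array.

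put, the type II receptor that also serves activin ligands, had a higher mean at both later ages. Its level was -1.57, -2.31, -1.63, -0.85 and -1.29 at 7 days and -1.04, -0.05, -0.43, -1.30 and -1.23 at 35 days. The 6 arrays of 45-day MNs ranged from -1.92 to -0.49 with a median of -0.77. The ages overlapped, and the changes were 0.50 from 7 to 45 days (95% interval -0.28 to 1.27, adjusted p = 0.664), 0.72 from 7 to 35 days (-0.05 to 1.49, adjusted p = 0.238) and -0.23 from 35 to 45 days (-1.01 to 0.56), with limma. The difference between 7 and 45 days lay on slide 1, where it was 1.38, whereas slide 2 gave -0.25. On slide 1 the ages did not overlap, but only 2 arrays at 7 days and 3 at 45 days were compared there. The 2 put features, FBtr0082977 and FBtr0334030, barely followed each other over the 16 arrays (Pearson r = 0.06, as a description), and each contributed to the mean.

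tkv, a type I receptor, was lower on average at 45 than at 7 days, but its values included signals near background and did not pass the test. Its level was -3.21, -3.45, -3.29, -3.43 and -2.51 at 7 days. At 35 days it was -2.66, -10.92, -4.64, -2.96 and -4.47, and at 45 days it ranged from -9.30 to -3.27 with a median of -5.91. The 7-day arrays lay within a narrow band, and the 2 lowest values of all came from replicate 2 at 35 days and replicate 3 at 45 days. The change from 7 to 45 days was -2.66 (SE 0.90, 95% interval -4.64 to -0.67, adjusted p = 0.447, limma), a value that includes a feature undetected on 4 of 6 arrays at 45 days, and 5 of the 6 45-day arrays were below every 7-day array.

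The 2 tkv features differed in how often they were detected. The feature for transcript FBtr0079086 was well above background on 5 of 5 arrays at 7 days, 4 of 5 at 35 days and 2 of 6 at 45 days. At 7 days it read -3.82, -3.07, -4.09, -4.78 and -2.81, and at 35 days -2.20, -10.84, -6.18, -2.90 and -6.61. At 45 days it read -5.35 and -2.91 on the arrays where it was detected, replicates 2 and 5, and between -10.28 and -8.73 on the other 4, where the size of the value has no meaning beyond being low. It did not pass between 7 and 45 days (adjusted p = 0.388, limma), and no exact change is given because most of the 45-day values were near background. The fitted difference ranged from -5.03 to -1.89 over the alternatives, the smallest being that with normexp.

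The feature for FBtr0079089, in contrast, was well above background on 5 of 5, 4 of 5 and 5 of 6 arrays, with a change of -1.26 from 7 to 45 days (95% interval -3.84 to 1.32, adjusted p = 0.702), which was -0.17 without replicate 3 of 45 days. On the arrays where it was detected it read -3.82 to -2.08 at 7 days, -3.12 to -2.34 at 35 days and -3.64 to -2.23 at 45 days, which overlap closely. The arrays on which it was not above background were replicate 2 at 35 days and replicate 3 at 45 days, where FBtr0079086 was undetected as well. Whether the change differed between the 2 features was not tested.

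The size of the tkv change therefore depended on how low signals were treated. With normexp background correction, which compresses low signals, the change of the gene from 7 to 45 days was -1.34, and with the brighter feature alone it was -1.26, which is smaller than the change of gbb. From 7 to 35 days it was -1.95 (95% interval -5.03 to 1.12) with all arrays and -0.51 without replicate 2 of 35 days, and from 35 to 45 days it was -0.70 (-4.08 to 2.67) with all arrays and -2.15 without it. The change from 7 to 45 days was -3.31 on slide 1 and -1.95 on slide 2.

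**Figure D3:**
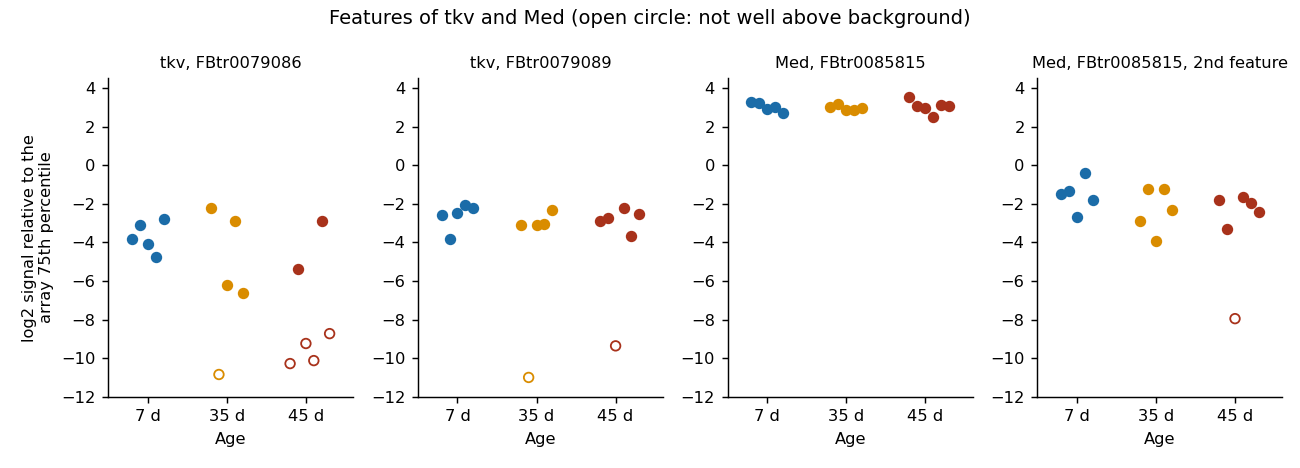
Log2 signal relative to the array's 75th percentile on each array, by age in days, for both tkv features and for 2 of the 4 Med features, with filled circles for arrays on which the feature was well above background and open circles for those on which it was not. The tkv feature FBtr0079086 is open on 4 of 6 arrays at 45 days and on 0 of 5 at 7 days, and levels are not comparable between panels.

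sax, the other type I receptor, was well above background on all 16 arrays. It read 2.08, 1.08, 2.00, 0.92 and 1.12 at 7 days and 1.80, 1.83, 2.07, 1.53 and 1.52 at 35 days. At 45 days it ranged from 0.78 to 1.83 with a median of 1.39. The 35-day arrays sat in the upper part of a range that the other ages covered in full. The changes were -0.08 from 7 to 45 days (95% interval -0.76 to 0.60, adjusted p = 0.939), 0.31 from 7 to 35 days (-0.33 to 0.95, adjusted p = 0.568) and -0.39 from 35 to 45 days (-0.94 to 0.16, adjusted p = 0.547), with limma.

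Mad, the Smad that the type I receptors phosphorylate, overlapped across the ages. Its level was 0.10, 0.22, 1.30, 0.37 and 0.40 at 7 days and 0.46, 0.07, 0.35, 0.51 and -0.26 at 35 days. The level in 45-day MNs ranged from -0.22 to 0.69 with a median of 0.21. Only replicate 3 at 7 days stood above the range of the later ages. The changes were -0.27 from 7 to 45 days (95% interval -0.90 to 0.36, adjusted p = 0.744), -0.25 from 7 to 35 days (-0.87 to 0.37) and -0.02 from 35 to 45 days (-0.60 to 0.56), with limma, and median scaling gave 0.054 for the change from 7 to 45 days. Its 2 features, both annotated to FBtr0077616, gave -0.33 and -0.21 between 7 and 45 days and correlated with r = 0.48 over the 16 arrays. The array measures Mad mRNA and carries no information on the phosphorylated protein.

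Med, the common partner Smad, read 1.94, 2.01, 1.42, 2.12 and 1.49 at 7 days and 1.46, 1.98, 1.09, 1.81 and 1.51 at 35 days. At 45 days it ranged from 0.15 to 2.02 with a median of 1.48. The ages overlapped, and the lowest value belonged to replicate 3 at 45 days. The change from 7 to 45 days was -0.42 (95% interval -1.15 to 0.30, adjusted p = 0.669, limma), and -0.18 without that array.

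The 4 Med features were read separately. For 3 of them the change from 7 to 45 days was -0.05, -0.04 and 0.02, with 95% intervals within -0.48 to 0.49, and these 3 correlated with each other at r = 0.90 to 0.96 over the 16 arrays. Their levels at 7 days lay within a range of 2.53 to 3.29, and at 45 days within 2.31 to 3.54. The remaining feature, annotated to FBtr0085815 like another of the 3, correlated with them at r = 0.14 to 0.20 and changed by -1.63 (95% interval -3.98 to 0.71, adjusted p = 0.660). It was not above background on replicate 3 at 45 days, where it read -7.95, and without that array its change was -0.68.

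Dad, the inhibitory Smad, read 0.85, 0.75, 1.21, 0.52 and 0.73 at 7 days and 0.92, 0.54, 0.86, 0.89 and 1.29 at 35 days. At 45 days it ranged from -0.02 to 1.63 with a median of 0.83. The 45-day arrays reached both the lowest and the highest Dad level of the study, and their SD was 0.56 against 0.25 at 7 days and 0.27 at 35 days, a difference in spread that was not tested. The changes were 0.05 from 7 to 45 days (95% interval -0.59 to 0.68, adjusted p = 0.969), 0.09 from 7 to 35 days (-0.39 to 0.56, adjusted p = 0.850) and -0.04 from 35 to 45 days (-0.69 to 0.60, adjusted p = 0.966), with limma. Its 2 features followed each other with r = 0.99 over the 16 arrays. Among 45-day arrays, Dad was 0.79 higher on the 3 in row 1 than on the 3 in row 2, with no overlap. No other member was separated between these rows. The share of all genes without overlap between such small groups was not computed, so no effect of the layout on Dad is drawn from this. Against 45-day arrays of the same row only, the change of Dad was -0.35 from 7 days and 0.35 from 35 days.

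**Figure D4:**
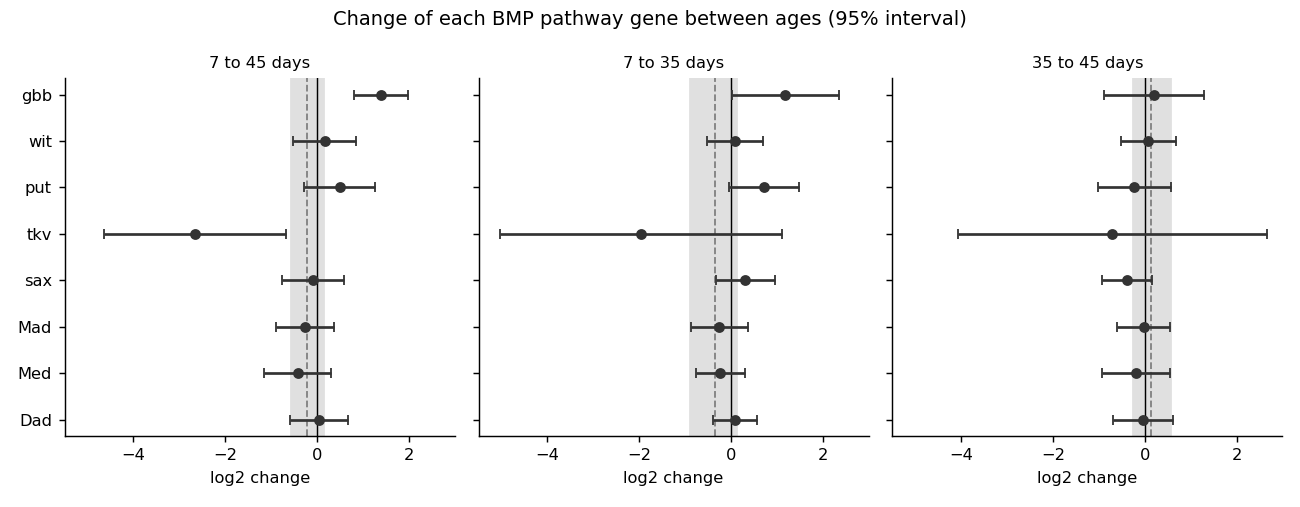
Log2 change of each gene between pairs of ages (points) with its 95% interval (bars), beside the median over all genes (dashed line) and the interquartile range over all genes (grey band). Only gbb and tkv have intervals that leave out 0 between 7 and 45 days, at 1.39 and -2.66, and gbb alone between 7 and 35 days, at 1.18, before adjustment for all genes tested.

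The genes did not move as a block on the arrays of an age. Replicate 3 at 45 days was the lowest of its age for 5 of the 8 genes, wit, tkv, Mad, Med and Dad, but not for gbb, put or sax. On this array 61.8% of spots were well above background, within the range of the other arrays, and no member count changed when it was left out. At 7 days replicate 3 was highest for gbb, Mad and Dad and lowest for Med. Comparing 7 with 45 days within slides, gbb, tkv, sax and Med kept 1 direction on both slides, while wit, put, Mad and Dad had opposite signs. In the comparison of 35 with 45 days no member failed to overlap, where 0.588% of all genes did.

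The genes whose levels most resembled those of wit and Mad over the 16 arrays were sought among 6803 genes with a feature well above background on all arrays. For wit these were HnRNP-K (Pearson r = 0.89), CG7985 (r = 0.84) and Octalpha2R (r = 0.83). For Mad they were CNPYb (r = 0.79), fog (r = 0.78) and Map205 (r = 0.72). No other member was among them, and these values describe the highest of a large search over arrays that share slides and scaling.

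A list of 31 further genes of the BMP and activin pathways was read in the same way, and all 31 were on the array. No gene of this list passed the test in any comparison. At an unadjusted p under 0.05, 0 genes were higher and 1 was lower in 45-day than in 7-day MNs. In 35-day MNs 0 were higher and 5 lower than at 7 days, and from there to 45 days 1 was higher and 0 were lower. Over all genes the shares at this level were 9.07%, 24.1% and 7% in the same comparisons. The median changes of the list were -0.11, -0.11 and 0.01, against -0.21, -0.34 and 0.15 for all genes. Among the 5 lower at 35 days were scw, a BMP ligand, tld, a protease that releases BMPs from their inhibitors, and ema, an endosomal protein. The scw feature was above background on 0 arrays, and the tld and nwk features were not above background on every array. For ema, 1 of its 2 features was above background on 3 arrays at 7 days and on 0 later.

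Other ligands and their receptors did not pass. dpp, the best studied fly BMP ligand, changed by -0.83 from 7 to 45 days with a 95% interval of -5.17 to 3.51, and mav, a distant member of the family, by -1.02 (-4.22 to 2.19), so that neither was measured well here. Actbeta, an activin ligand, was measured closely and changed by -0.16 (-0.59 to 0.26), while daw, another activin-type ligand, gave -1.73 (-5.08 to 1.63). babo, the type I receptor of the activin branch, gave -0.36 (-1.48 to 0.75), and its Smad, Smox, gave -0.48 (-1.57 to 0.61). Adjusted p-values for these 6 genes were between 0.690 and 0.892 with limma. The daw feature was above background on 4 arrays at 35 days and 4 at 45 days, and 1 of the 3 babo features on 1 array at each age.

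The known targets of the signal in MNs did not pass either. trio, a Rac exchange factor whose transcription depends on BMP signaling in larval MNs, changed by 0.27 from 7 to 45 days (95% interval -0.14 to 0.67, adjusted p = 0.659). twit, a further target in MNs, changed by -0.25 (-0.73 to 0.23, adjusted p = 0.686). FMRFa, a neuropeptide gene that BMP signaling switches on in a small group of peptidergic neurons, changed by 0.23 (-0.69 to 1.14), and brk, a repressor that BMP signaling silences in other tissues, by 0.32 (-1.74 to 2.39). Of the 2 FMRFa features, 1 was above background on 0 arrays, so the gene value includes background signal. For trio and twit the intervals leave out a 2-fold change in either direction, whereas those of FMRFa and brk do not.

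Regulators of the receptors and of their traffic did not pass at the gene level. nwk, an adaptor that limits receptor signaling from endosomes, changed by -2.21 from 7 to 35 days (95% interval -3.32 to -1.10, adjusted p = 0.112, limma), with every 35-day array, at -3.16 to -0.72, below every 7-day array, at -0.50 to 0.53. Of all genes, 4.39% did not overlap in this comparison, in which age and slide row cannot be told apart, and each nwk feature was above background on 4 of 5 arrays at 35 days. From 7 to 45 days its change was -0.82 (-2.11 to 0.46). spict, an endosomal inhibitor of BMP signaling, changed by -0.01 (-1.02 to 1.00) between 7 and 45 days and hiw, a ubiquitin ligase that restrains growth of the junction, by 0.40 (-0.46 to 1.27). Smurf, a ubiquitin ligase for pathway proteins, was above background on 0 arrays at 7 days, 2 at 35 days and 1 at 45 days, so no change is given for it. ema had the lowest unadjusted p of the list between 7 and 45 days and changed by -1.57 (-2.53 to -0.60, adjusted p = 0.376, limma).

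Of the 170 features of this list, 1 passed the test, between 7 and 35 days, where 0.097% of all features passed. It belongs to Dap160, a scaffold of the endocytic machinery that binds Nwk, and is annotated to transcript FBtr0081503, among 63 features for that gene. Of the other features of this transcript, some were above background on all arrays and some on only part of them. The feature that passed therefore does not stand for the transcript as a whole. This feature read -2.93, -6.31, -3.50, -3.06 and -6.69 at 7 days and failed to rise well above background on the 5 arrays of 35-day MNs (adjusted p = 0.0390, limma). Its 7-day mean of -4.50 was 14.4-fold above the mean detection floor of -8.34 at 35 days. The 7-day arrays at -6.31 and -6.69 lay closer to that floor. This ratio sets the 7-day mean against the lowest signal well above background on each 35-day array, and the size of the change depends on how low signals are treated. With normexp background correction the fitted change from 7 to 35 days was -2.48. At 45 days the feature was above background on 3 of 6 arrays. It passed in 8 of 19 alternatives, and over all of them its adjusted p was between 0.00989 and 0.167. Dap160 as a gene changed by -1.07 from 7 to 35 days (95% interval -2.04 to -0.10, adjusted p = 0.170).

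**Figure D5:**
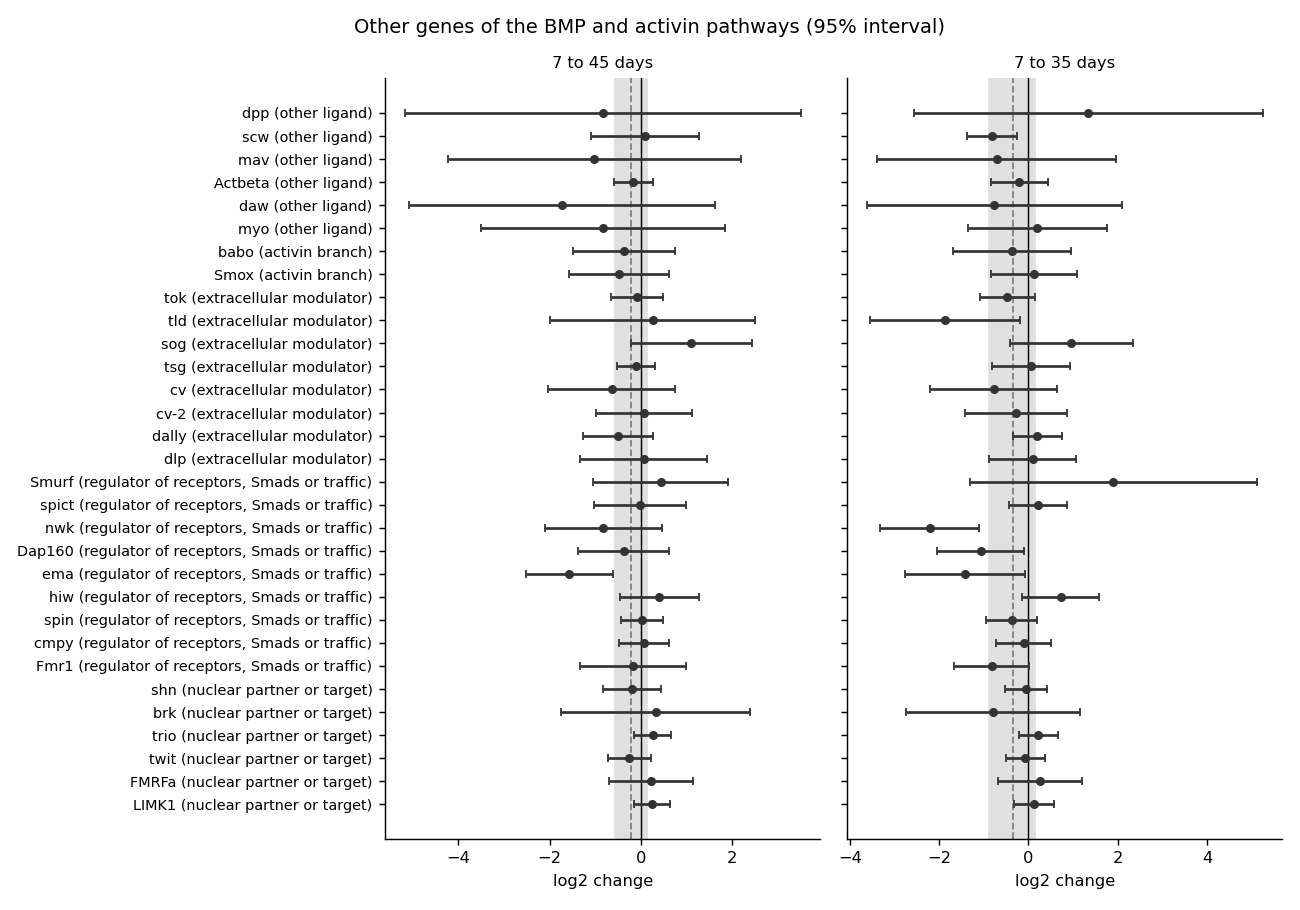
Log2 change of each of the 31 further pathway genes (points) with its 95% interval (bars) from 7 to 45 days and from 7 to 35 days, beside the median (dashed line) and interquartile range (grey band) over all genes. Intervals leave out 0 for ema between 7 and 45 days and for scw, tld, nwk, Dap160 and ema between 7 and 35 days, before adjustment.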

How the data were processed

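Sorted MN RNA was amplified, labeled with Cy3 and hybridized by the authors to a custom 1-color Agilent array, with 1 array for each of 16 pools. The deposited scanner files hold intensity values (background-corrected by Agilent Feature Extraction, not normalized between arrays), and the deposited table holds log2 values scaled by the authors to the 75th percentile of each array. Its column medians lay between -0.49 and 0.27. For the comparison, the values computed here were centered on each feature's median over the 16 arrays. The deposited table then differed from them by a median of 0.001 to 0.005. The levels given in this report were not centered in this way.

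Control spots and outlier spots were left out, log2 intensity was averaged over the spots of a feature, and the array's 75th percentile was subtracted. A gene was the mean of its features. RefSeq accessions named 33175 features, among them every member feature. A further 1704 were named through the authors' list of custom transcripts and 20 through a transcript shared with a named feature. Ages were grouped by the labels and compared with limma 3.58.1 (lmFit and eBayes, R 4.3.3) on the arrays compared, with Benjamini-Hochberg adjustment over all features or genes. The number of arrays limits the precision. Named were all 8 members, the genes listed for the wider pathway and the 3 nearest patterns for wit and Mad. The members and lists were chosen with earlier results of these data known, and values of Dap160, scw, tld and ema, which the rule did not list, were picked after they were seen. The script was tested on simulated data. The alternatives were the deposited table, normexp (on median signals, as mean signals were not used here), quantile and median scaling, outlier spots kept, a filter on dim features, the brightest feature, slide, slide row, 1 model for all ages, replicate number, the methods' t-test with the Benjamini-Hochberg step and each array left out. Probe sequences and coordinates were not used here.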

Additional observations from a re-analysis of the deposited data

Results flagged for a closer look

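Among 60 groups of arrays (each member feature, and each gene with several features, at each age), 9 held a highest or lowest array whose gap to the next exceeded Dixon's 95% critical value, and chance gives about 1 in 20. Replicate 3 at 45 days accounted for 3 of these, with a wit level of 0.96 (next 2.02), a tkv FBtr0079089 level of -9.36 (next -3.64) and a level of -7.95 (next -3.32) for the Med feature that was near background. The wit level of replicate 3 at 35 days was 2.34, against 1.85 for the next array. Replicate 2 at 35 days read -11.00 (next -3.12) for tkv FBtr0079089 and -10.92 (next -4.64) for tkv as a gene. At 7 days, replicate 5 was high for tkv at -2.51 (next -3.21) and replicate 3 was high for Mad at 1.30 (next 0.40). A Mad feature read -1.40 on replicate 5 at 35 days, against -0.49 for the next array. No gbb, put, sax or Dad value was set apart in this way.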

How the results depend on the processing

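The 7 counts of members past the threshold stayed at 0 in every alternative that could be run, except that the filter on dim features gave 1 member feature between 7 and 45 days, gbb. With that filter 208 of 23669 features passed, against 170 of 45366 without it. Leaving out each array in turn gave 0 for all 7 counts. Most of the 24 gene changes turned their sign in at least 1 alternative, the largest of them tkv from 35 to 45 days (-0.70) and Med from 7 to 45 days (-0.42). Median scaling gave 0.25 for sax and 0.0543 for Mad from 7 to 45 days, and 0.10 for Mad and 0.12 for Med from 7 to 35 days. This scaling shifts all genes of an array by the same amount. On replicate 4 at 45 days the median over all features was -6.36, against -4.72 to -3.92 on the other arrays. That array also had the lowest share of spots well above background, 56.7%. Normexp gave 0.0141 for Mad from 35 to 45 days. The brightest feature gave 0.0235 for Med from 7 to 45 days, 0.0004 for Mad from 7 to 35 days, and 0.61 for tkv and 0.0781 for Med from 35 to 45 days. With the slide row as a term, and equally with 1 row alone, wit was -0.0058 and Dad -0.35 from 7 to 45 days, and Mad was 0.15, Med 0.17 and Dad 0.35 from 35 to 45 days. The cause of these turns was not tested. With each array left out, the ranges that crossed 0 were -0.21 to 0.0822 (sax), -0.11 to 0.22 (Dad) and -0.0255 to 0.36 (wit) from 7 to 45 days, -0.10 to 0.21 (wit) and -0.0104 to 0.19 (Dad) from 7 to 35 days, and -0.19 to 0.59 (gbb), -0.14 to 0.0663 (Mad), -0.33 to 0.0478 (Med) and -0.20 to 0.13 (Dad) from 35 to 45 days. Without replicate 4 at 35 days, 4974 of all features in place of 44 passed between 7 and 35 days, but 0 member features did. The replicate numbers did not pair the arrays, since 15 pairs of equal number had correlations of -0.06 to 0.13 and 1 was over 0.1. With the replicate number as a block, 0 members passed and the change of Mad from 35 to 45 days was 0.0621. Of all 45366 features, 1 passed from 7 to 45 days in that setting, 0 from 7 to 35 days and 1 from 35 to 45 days. The count of 0 members therefore says little about the members. The number of arrays and signals near background, above all for tkv, limit what could be detected.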
